A study of Mus musculus with 6 samples.

Results

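The genes described here were 41 genes that cells express as they copy their DNA, the S phase of the cell cycle, out of 52636 genes in the count table. They were taken as a fixed list of names (all 41 were found in the table), not by their values in these cells. The list was, however, chosen with earlier results of these data known. The choroid, which supplies the outer retina with blood, had been dissected together with the retinal pigment epithelium (RPE, pigmented cells that serve the photoreceptors). Its cells had been placed in culture and then profiled by 3′ single-cell RNA sequencing with unique molecular identifiers (UMIs), in 6 samples and 25428 cells. The 3 Dram2 wt/wt and 3 Dram2 ko/ko samples came from male C57BL/6J mice of 12 to 16 months, and no agent separated the groups. Dram2 encodes a lysosomal membrane protein, and the knockout is constitutive, made by CRISPR/Cas9 in 1 exon of the gene. The labels put 5 samples in batch 1 and Dram2 ko/ko replicate 3 alone in batch 2, so this batch and that sample cannot be told apart. The sources used here do not state, for the sequenced samples, how many animals or eyes went into each.

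DNA is copied in ordered steps. In G1, loading factors place the MCM helicase on origins of replication. At the start of S phase the helicase is activated, primase and polymerase alpha lay down primers, and a sliding clamp holds the later polymerases on the template. Ribonucleotide reductase and thymidylate synthase supply the nucleotides, checkpoint and repair factors watch the forks, and histone chaperones pack the new strands. Many of these genes are transcribed under E2F factors, which are released when a cell commits to divide. RPE cells rarely divide in the adult eye, whereas several of these cell types enter the cycle in culture.

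The promoters of a few members are shown first, since E2F factors are known to act on the promoters of many replication genes. RefSeq promoter sequence on GRCm38.p6 could be matched for 31 of the 41 members. The letters TTTGGCGC, TTTCCCGC, TTTCGCGC and TTTGCCGC were searched on both strands in the 250 bases before the start, and matches may overlap. At least 1 of them was present in 9 of 31 members (29.0%), against 2.16% of 27025 genes and 1.86% of 32851 promoters of the same length. The share was 21.4% of 28 other replication genes and 6.38% of 47 G2/M genes with a matched promoter. The letters CCAAT were present in 71.0% of the members and 37.5% of all genes. The letters TTTGAA were present in 19.4% of the members, 18.3% of all genes and 42.6% of the G2/M genes. The 150 bases next to the start are given below, 5′ to 3′ on the strand of the gene, with capitals at the E2F letters. Mcm6 (chr1:128359706-128359855, minus strand) had the most matches, Dtl (chr1:191575545-191575694, minus strand) and Pola1 (chrX:93632156-93632305, minus strand) had 1 each, and Rrm1 (chr7:102441545-102441694, plus strand) had none of these letters in this window.
Mcm6: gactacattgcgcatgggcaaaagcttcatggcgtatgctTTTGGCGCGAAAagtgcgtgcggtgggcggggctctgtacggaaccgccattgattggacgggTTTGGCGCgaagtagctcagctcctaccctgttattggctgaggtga
Dtl: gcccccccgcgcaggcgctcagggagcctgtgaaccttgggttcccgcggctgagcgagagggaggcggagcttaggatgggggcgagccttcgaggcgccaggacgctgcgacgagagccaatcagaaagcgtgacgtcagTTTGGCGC
Pola1: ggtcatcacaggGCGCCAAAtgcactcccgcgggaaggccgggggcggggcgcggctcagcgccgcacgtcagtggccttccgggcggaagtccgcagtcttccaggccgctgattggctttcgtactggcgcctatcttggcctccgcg
Rrm1: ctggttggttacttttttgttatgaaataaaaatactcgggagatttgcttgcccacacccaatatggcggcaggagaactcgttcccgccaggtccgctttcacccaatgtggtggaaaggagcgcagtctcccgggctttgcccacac
A match is a description of letters and not of binding.

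Libraries held 2140 to 6648 cells and 96808998 to 122746184 UMIs, with a median of 16453 to 47373 UMIs per cell. Dram2 itself was read at 33.4, 39.6 and 38.1 CPM (UMI counts scaled to a common total) in the wt/wt replicates and at 30.7, 28.3 and 30.1 CPM in the ko/ko replicates. A 3′ read lies outside the altered exon and so does not test the knockout. The cell type names were those the authors deposited. Cells annotated Pericyte held the Schwann cell genes Ngfr (407 CPM) and Sox10 (179 CPM), which were at most 3.11 CPM in the other types. Of the pericyte markers, Kcnj8, Higd1b and Ndufa4l2 were at 0 in them, Rgs5 was at 7.79 and Pdgfrb at 29.4 CPM, below their levels in Fibroblast, and Cspg4 was at 199 CPM, above its level in every other type. RPE cells held Krt18 (710 CPM) and Otx2 (87.4 CPM), with Rpe65 at 0.693 CPM and Best1 at 0.196 CPM. Barcodes had been replaced by running cell names, so barcodes shared between libraries could not be counted.

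Summed, the S phase genes were highest in the cells annotated Fibroblast proliferating, followed by the cells annotated Pericyte. The summed level of the 41 genes was 3317 ± 77.4 CPM (SD, n = 6 samples) in Fibroblast proliferating and 2429 ± 330 CPM in Pericyte. It was 1284 ± 141 CPM in Fibroblast-like, 1260 ± 587 CPM in RPE and 1232 ± 283 CPM in Myeloid (n = 4, with 84 cells in the type). Myeloid cells also held fibroblast RNA, with Mgp at 1777 CPM against 2931 CPM in Fibroblast, Dcn at 458 against 580 CPM and Col1a1 at 373 against 673 CPM, and the part of such RNA in their S phase level and share was not tested. Endothelial cells held 635 ± 114 CPM, Fibroblast 573 ± 19.9 CPM and Fibroblast 2 443 ± 19.3 CPM. Fibroblast-like, RPE and Myeloid did not differ beyond their spread in this order, nor did Endothelial and Fibroblast. Clusters were built by the authors from the same counts, so these levels are a description and were not tested.

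**Figure D1:**
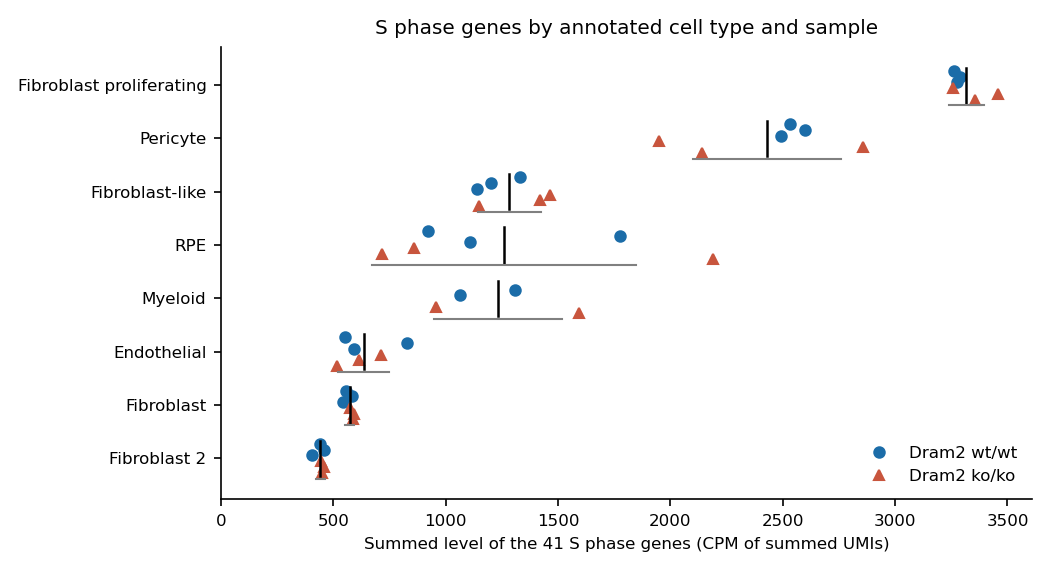
Summed level of the 41 S phase genes in CPM on the horizontal axis, for each annotated cell type. Each point is 1 sample (circles, Dram2 wt/wt; triangles, Dram2 ko/ko), the vertical line is the mean and the grey bar is ± 1 SD; Fibroblast proliferating samples sit between 3259 and 3457 CPM, while RPE samples spread from 715 to 2188 CPM.

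Samples agreed closely within Fibroblast, Fibroblast 2 and Fibroblast proliferating, spread more in Fibroblast-like and spread widely in RPE. In RPE the summed level was 920, 1774 and 1108 CPM in the wt/wt replicates and 857, 715 and 2188 CPM in the ko/ko replicates. The highest RPE samples were thus wt/wt replicate 2 and ko/ko replicate 3, and the genotypes overlapped. These were also the samples with the largest share of RPE cells with 2 or more UMIs of Mki67 and Top2a, markers of dividing cells that are not among the 41. After each cell was thinned to 8000 UMIs, that share was 7.50%, 28.3% and 10.6% in the wt/wt replicates and 6.25%, 5.81% and 40.9% in the ko/ko replicates. These shares rested on 40, 332 and 123 RPE cells in the wt/wt and 48, 86 and 513 in the ko/ko replicates. Among RPE cells with 0 UMIs of both markers the summed level was 694 ± 223 CPM (n = 6).

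Of the 41 members, 33 had their highest mean level in Fibroblast proliferating and 8 in Pericyte. For 39 members these were the highest types, and for 19 members the highest and second highest types lay within 1 SD of each other. Levels were lowest in Fibroblast 2 for 24 members and in Fibroblast for 9. Relative to Fibroblast, the members were a median of 7.55-fold higher in Fibroblast proliferating, and all 41 were higher there in 6 of 6 samples. The share of all genes that were higher there was not worked out.

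**Figure D2:**
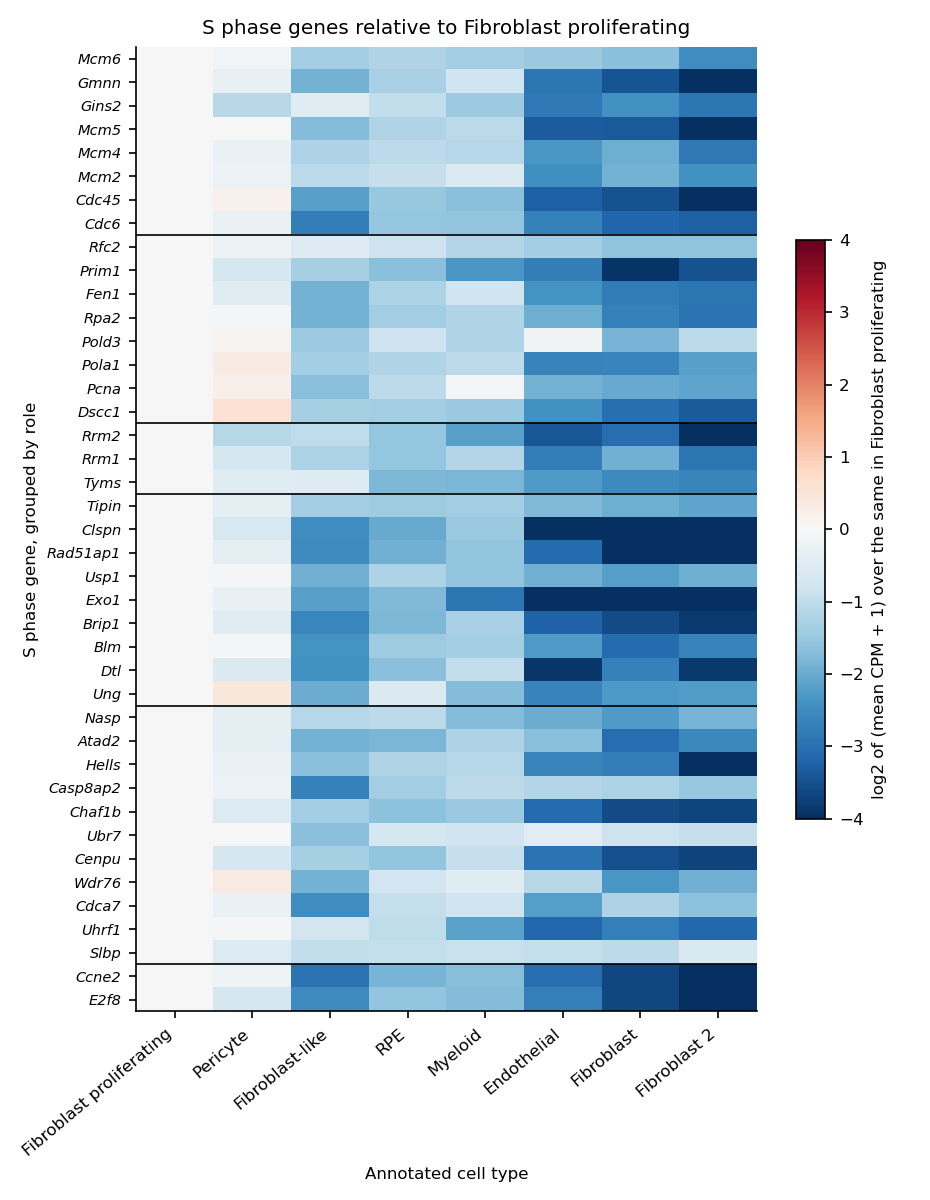
Each row is an S phase gene, grouped by role from helicase loading (top) to cyclin and E2F (bottom), and each column an annotated cell type. Color is the log2 of mean CPM plus a pseudocount of 1 over the same value in Fibroblast proliferating, so blue is lower. The color scale is capped at both ends, so genes at the deepest blue cannot be ranked. Pericyte cells are pale or slightly red. Fibroblast is deepest blue for Clspn, Rad51ap1 and Exo1, and Fibroblast 2 for these and for others, Mcm5 among them.

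Helicase loading and firing genes (8 members) summed to 627 ± 23.6 CPM in Fibroblast proliferating, 519 ± 55.2 in Pericyte, 278 ± 141 in RPE and 114 ± 9.04 in Fibroblast. Mcm6, a subunit of the helicase, was at 21.5 ± 4.69 CPM in Fibroblast 2, its lowest type, 38.4 ± 5.04 CPM in Fibroblast and 124 ± 7.04 CPM in Fibroblast proliferating. Mcm5, another subunit, was at 85.0 ± 11.4 CPM in Pericyte and 84.7 ± 4.27 CPM in Fibroblast proliferating, and these did not differ beyond their spread. Cdc45, which joins the helicase when an origin fires, was at 42.4 CPM in Pericyte, 37.4 CPM in Fibroblast proliferating and 2.43 CPM in Fibroblast.

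Fork synthesis genes (8 members) summed to 405 ± 19.9 CPM in Fibroblast proliferating, 358 ± 53.7 in Pericyte, 173 ± 72.7 in RPE and 69.6 ± 3.32 in Fibroblast. Pcna, the sliding clamp, was at 27.4 ± 9.88 CPM in Pericyte, 23.9 ± 2.65 CPM in Fibroblast proliferating and 22.7 ± 5.72 CPM in Myeloid (n = 4), which overlapped. Dscc1, part of a loader of the clamp, was 1.53-fold higher in Pericyte than in Fibroblast proliferating, in 5 of 6 samples, on 93 UMIs in Pericyte. Pold3, a polymerase delta subunit, was nearly as high in Endothelial (26.1 CPM) as in Fibroblast proliferating (28.6 CPM).

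Nucleotide supply genes (3 members) summed to 992 ± 26.7 CPM in Fibroblast proliferating, 524 ± 99.2 in Pericyte, 331 ± 130 in RPE and 166 ± 15.1 in Fibroblast. Rrm2, the small subunit of ribonucleotide reductase, was at 580 ± 24.9 CPM in Fibroblast proliferating. It was at 260 CPM in Pericyte, which was 0.448 of that level and lower in 6 of 6 samples. Of all members, Rrm2 had the lowest ratio of Pericyte to Fibroblast proliferating and Gins2 (0.459), a subunit of the active helicase, the next lowest.

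Checkpoint and repair genes (9 members) summed to 532 ± 30.1 CPM in Fibroblast proliferating, 420 ± 78.3 in Pericyte, 176 ± 95.9 in RPE and 78.0 ± 4.85 in Fibroblast. This group held the members with the widest range between the fibroblast types. Rad51ap1, a helper of recombination repair, was at 55.5 CPM in Fibroblast proliferating and 1.29 CPM in Fibroblast, a ratio of 43.0, and Clspn, a mediator of the fork checkpoint, had a ratio of 42.2. Exo1, a repair exonuclease, had a ratio of 37.99. Ung, which removes uracil from DNA, was in RPE at 0.646 of its Fibroblast proliferating level there (10.9 against 16.9 CPM), the highest such ratio of any member. In Pericyte it was 1.40-fold higher than in Fibroblast proliferating in 6 of 6 samples.

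Histone, chromatin and centromere genes (11 members) summed to 688 ± 16.4 CPM in Fibroblast proliferating, 549 ± 78.2 in Pericyte, 282 ± 144 in RPE and 142 ± 5.27 in Fibroblast. The lowest ratios of Fibroblast proliferating to Fibroblast were in this group, at 1.84 for Ubr7, 2.22 for Slbp, 2.45 for Casp8ap2 and 2.57 for Cdca7. Slbp encodes the protein that binds the stem loop of histone mRNA, and Cdca7 an activator of the chromatin remodeler Hells. Cyclin and E2F genes (2 members) summed to 72.2 ± 5.50 CPM in Fibroblast proliferating and 3.91 ± 0.385 CPM in Fibroblast. E2f8, a repressor of the E2F family, had a ratio of 24.6 between these types.

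Fibroblast-like cells were shallow, with a median of 4825 UMIs, and all 41 members were detected in them. Relative to Fibroblast the members had a median ratio of 2.16, and 27 were higher and 3 lower in 6 of 6 samples. The share of all genes that did so was not worked out, so these counts describe the members only. Gins2 (0.709), Tyms (0.693), Rfc2 (0.689) and Uhrf1 (0.576) had the highest ratios to Fibroblast proliferating. Cdc6 (0.110), Ccne2 (0.111) and Cdca7 (0.122) had the lowest, on 18, 41 and 12 UMIs in all. The deposited fibroblast sub-clusters 5 and 6 differed in which members they held. Their median share of mitochondrial UMIs per cell differed too, at 2.08% in sub-cluster 5 and 21.0% in sub-cluster 6, and its part in the differences below was not tested. Sub-cluster 5 summed to 1399 ± 140 CPM and sub-cluster 6 to 1067 ± 98.0 CPM, against 3356 ± 69.8 in sub-cluster 2 and 596 ± 25.4 in sub-cluster 1. In sub-cluster 6, Wdr76 was 11.3-fold, Blm 8.36-fold, Casp8ap2 6.79-fold and Dtl 6.06-fold higher than in sub-cluster 5, each in 6 of 6 samples. Gins2 (0.233), Rfc2 (0.287) and Tyms (0.345) were lower in sub-cluster 6 in 6 of 6 samples. These counts were small, with 55 UMIs of Wdr76 in sub-cluster 6 and 10 in sub-cluster 5. Sub-clusters 3, 4, 7 and 9 held 459, 542, 495 and 570 CPM, and sub-cluster 8, with a median of 3150 UMIs and a median mitochondrial share of 91.1%, 112 CPM (n = 4).

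Cells were also counted by how many members they held, as the share with 10 or more of the 41 detected after thinning to 8000 UMIs. This share was 27.9% ± 2.77 (SD, n = 6) over all cells, and 51.8% without thinning. By type it was 85.6% ± 0.939 in Fibroblast proliferating, 52.5% ± 15.7 in Pericyte and 25.4% ± 19.5 in RPE. It was 31.1% ± 9.18 in Myeloid (n = 3) and 29.0% ± 9.37 in Fibroblast-like (n = 5). The Myeloid value rested on 16 and 15 cells of wt/wt replicates 2 and 3 and 12 of ko/ko replicate 3. In Fibroblast the share was 3.14% ± 0.455 and in Fibroblast 2, at the same depth, 0.278% ± 0.264, the lowest of the types. Thinning left out 3401 cells, among them 930 of 1121 Fibroblast-like cells. A score range is not a cell type, and 6.99% of all cells had a count near the limit.

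Of 6197 cells with 10 or more members, 82.6% were Fibroblast proliferating, 7.63% RPE, 5.87% Fibroblast, 2.45% Pericyte and 0.290% Myeloid. At the same depth, 68.6% of these cells held 2 or more UMIs of Mki67 and Top2a, and 17.1% held none. Conversely, 90.5% of the 4696 cells with 2 or more UMIs of Mki67 and Top2a held 10 or more members. Of the 364 annotated Fibroblast cells with 10 or more members, 75.0% held no Mki67 or Top2a (66.7% of 9 such cells in Fibroblast 2). In Fibroblast 3.29% of cells had a count near the limit, against 3.14% at or above it.

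To ask whether the same genes marked dividing cells in each type, cells with 2 or more UMIs of Mki67 and Top2a were compared with cells with 0, within the same samples and after thinning to 8000 UMIs for the choice of cells. In each of these fits a gene could pass the low-count filter through the positive cells alone. Top2a, which helped make the classes, itself followed the summed level over cell types and samples (Pearson r 0.964). The counts of called members are therefore a description. In RPE, 40 of 41 members were higher in the positive cells by voom-limma (adjusted p under 0.05 over 12942 genes), against 16% of all genes higher. Their median log2 fold change was 1.61, and 0.01 over all genes. The comparison rested on the 3 samples with 10 or more cells in each class, wt/wt replicates 2 and 3 and ko/ko replicate 3, with 317 positive and 522 negative cells. The positive cells numbered 94, 13 and 210 in these samples. The summed level was 3343 ± 36.6 CPM in positive and 869 ± 162 CPM in negative RPE cells. The positive RPE cells, at 3303, 3374 and 3354 CPM in the 3 samples, lay below positive Fibroblast proliferating cells in every sample, which held 3545 ± 89.0 CPM (n = 6).

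Rrm2 was at 544, 847 and 421 CPM in positive RPE cells of wt/wt replicate 2, wt/wt replicate 3 and ko/ko replicate 3, and at 107, 93.1 and 120 CPM in the negative cells of these samples. All positive values lay above all negative values. The largest changes were those of the repair helicase Brip1 (log2 fold change 2.96, SE 0.23, adjusted p = 9.0e-06 in voom-limma), the centromere gene Cenpu (2.81), the helicase Blm (2.71), E2f8 (2.71) and Rad51ap1 (2.67). Brip1 was at 22.3, 18.0 and 26.9 CPM in the positive and at 2.55, 2.18 and 3.27 CPM in the negative cells. The smallest called changes were those of Slbp (0.82, adjusted p = 0.0150 in voom-limma), Ubr7 (0.97), Casp8ap2 (1.01), Dtl (1.02) and Cdca7 (1.15). Slbp was called in 1 of 3 fits that left out 1 sample, with adjusted p values up to 0.124 in voom-limma. Ung did not pass (0.47, SE 0.17, adjusted p = 0.0629 in voom-limma), and was at 16.6, 18.0 and 18.3 CPM in positive against 10.9, 8.44 and 13.6 CPM in negative cells.

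In the cells annotated Pericyte, 4 samples with 122 positive and 73 negative cells could be compared. The summed level of all 41 members was 3450, 3735, 3453 and 3623 CPM in positive cells of wt/wt replicates 1 to 3 and ko/ko replicate 2, and 1361, 559, 806 and 1264 CPM in the negative cells. The classes did not overlap. Of the 41 members, 26 were called higher by voom-limma, against 7.8% of all 6502 genes, and 28 by edgeR, against 8.34%; 0 were lower, against 8.35% in voom-limma. The 9 members that were not tested (Cdca7, Dtl, Uhrf1, Cenpu, Slbp, Cdc6, Dscc1, Brip1 and E2f8) had low counts. A gene could pass the low-count filter through the positive cells alone, so the calls over the 32 tested members are a description. Clspn was at 98.6, 96.7 and 93.4 CPM in positive cells of the wt/wt replicates and 107 CPM in those of ko/ko replicate 2, against 22.4, 0, 0 and 23.4 CPM in negative cells. Its log2 fold change was 3.07 (SE 0.54, adjusted p = 4.6e-04 in voom-limma), the largest, followed by Rad51ap1 (2.70), Exo1 (2.56), Usp1 (2.44) and Cdc45 (2.28). The smallest called changes were those of Mcm6 (1.02), Gins2 (1.04), Fen1 (1.08), Nasp (1.17) and Casp8ap2 (1.19). Without ko/ko replicate 2 the calls of Mcm6, Gins2 and Fen1 were lost (adjusted p = 0.0877, 0.106 and 0.0818 in voom-limma), and without wt/wt replicate 3 those of Mcm6 and Fen1 were lost too. Exo1 was called in 3 of 4 such fits (adjusted p up to 0.0513 in voom-limma), and its change was 1.54 with thinning to 4000 UMIs. Mcm4, Pcna, Ung, Wdr76, Ccne2 and Ubr7 were tested and did not pass.

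In Fibroblast proliferating, 29 members were higher and 2 were lower in positive cells, against 11.3% and 15.4% of 15064 genes. The lower members were 4 with a limit of 3 UMIs for positive cells and 5 with thinning to 4000 UMIs. Changes were small, with a median log2 fold change of 0.49 for the members and -0.04 for all genes. The negative cells of this type already held 2585 ± 73.5 CPM of the 41 genes. The largest rises were those of Brip1 (1.14), Rad51ap1 (1.05), the primase subunit Prim1 (0.98), Blm (0.94) and Cenpu (0.91). The smallest called rises were those of Mcm4 (0.14), Mcm6 (0.15), Mcm2 (0.20), Ubr7 (0.21) and Mcm5 (0.24). Of 6 fits that left out 1 sample, Mcm4 was called in 3 (adjusted p up to 0.152 in voom-limma) and Ubr7 in 1 (up to 0.131). With thinning to 4000 UMIs the change was 0.04 for Mcm4, 0.09 for Mcm2 and Mcm6 and 0.11 for Mcm5, and Mcm4 and Mcm2 were not called (adjusted p = 0.470 and 0.0616 in voom-limma). The same thinning gave 0.68 for Rad51ap1, 0.62 for Prim1 and -0.53 for Cdca7, all called. Mcm4 was also not called with a limit of 3 UMIs for positive cells, nor Ubr7 with a limit of 1. Ung (chr5:114130386-114139323, plus strand) fell by 1.00 on the log2 scale (SE 0.08, adjusted p = 1.3e-09 in voom-limma). It was at 13.2, 13.0, 11.6, 12.3, 17.4 and 13.1 CPM in positive cells of wt/wt replicates 1 to 3 and ko/ko replicates 1 to 3, and at 27.1, 24.8, 18.6, 30.2, 30.6 and 27.1 CPM in negative cells. Cdca7 (chr2:72476159-72486893, plus strand) fell by 0.83 (SE 0.08, adjusted p = 4.7e-08 in voom-limma), from 22.4 ± 3.32 to 12.9 ± 1.51 CPM, and was lower in 6 of 6 samples. The other members that did not pass were Pcna, Dtl, Uhrf1, Hells, Nasp, Wdr76, Slbp, Ccne2, Cdc6 and Casp8ap2.

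In annotated Fibroblast cells, 67 positive cells of 5 samples were compared with 9981 negative cells. Of the 41 members, 23 were higher by voom-limma, against 9.18% of 16299 genes, and 21 were higher by edgeR, against 0.89%. Over all genes voom-limma called 1497 higher and 40 lower, and edgeR 145 higher and 166 lower. Positive sums held 223183 to 399626 UMIs and negative sums 49023263 to 70892995. The part of this depth in the calls was not tested. The voom-limma count of members fell to between 2 and 6 when any 1 sample was left out. The largest changes were those of Dscc1 (3.00), Cdc6 (2.70), Brip1 (2.57), Rad51ap1 (2.45) and Ccne2 (2.38), and the smallest called were those of Fen1 (0.83), Nasp (0.95), Gins2 (1.21), Rrm2 (1.23) and Wdr76 (1.40). Of these 10, Dscc1, which rested on 5 UMIs in positive cells, Fen1 and Wdr76 were not called by edgeR (adjusted p = 0.148, 0.335 and 0.392). The tests did not call the same members. Outside the 10, Cenpu, for example, was called by voom-limma alone (adjusted p = 0.427 in edgeR) and Mcm6 by edgeR alone (adjusted p = 0.0306). With 1 or more UMIs as the limit for positive cells, all 10 changes were smaller by more than 1.5 times, from 0.36 for Fen1 to 1.41 for Ccne2, and Brip1 (0.63) and Wdr76 (0.45) were not called (adjusted p = 0.216 and 0.160 in voom-limma). Fen1 and Nasp were not called without the 5% of cells with most UMIs. Cdc6 and Brip1 were called in all 5 fits that left out 1 sample, on 16 and 10 UMIs in the positive cells. The summed level was 1207 ± 266 CPM in positive and 554 ± 17.8 CPM in negative cells. Fibroblast-like, Fibroblast 2, Endothelial and Myeloid held too few positive cells for this test.

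**Figure D3:**
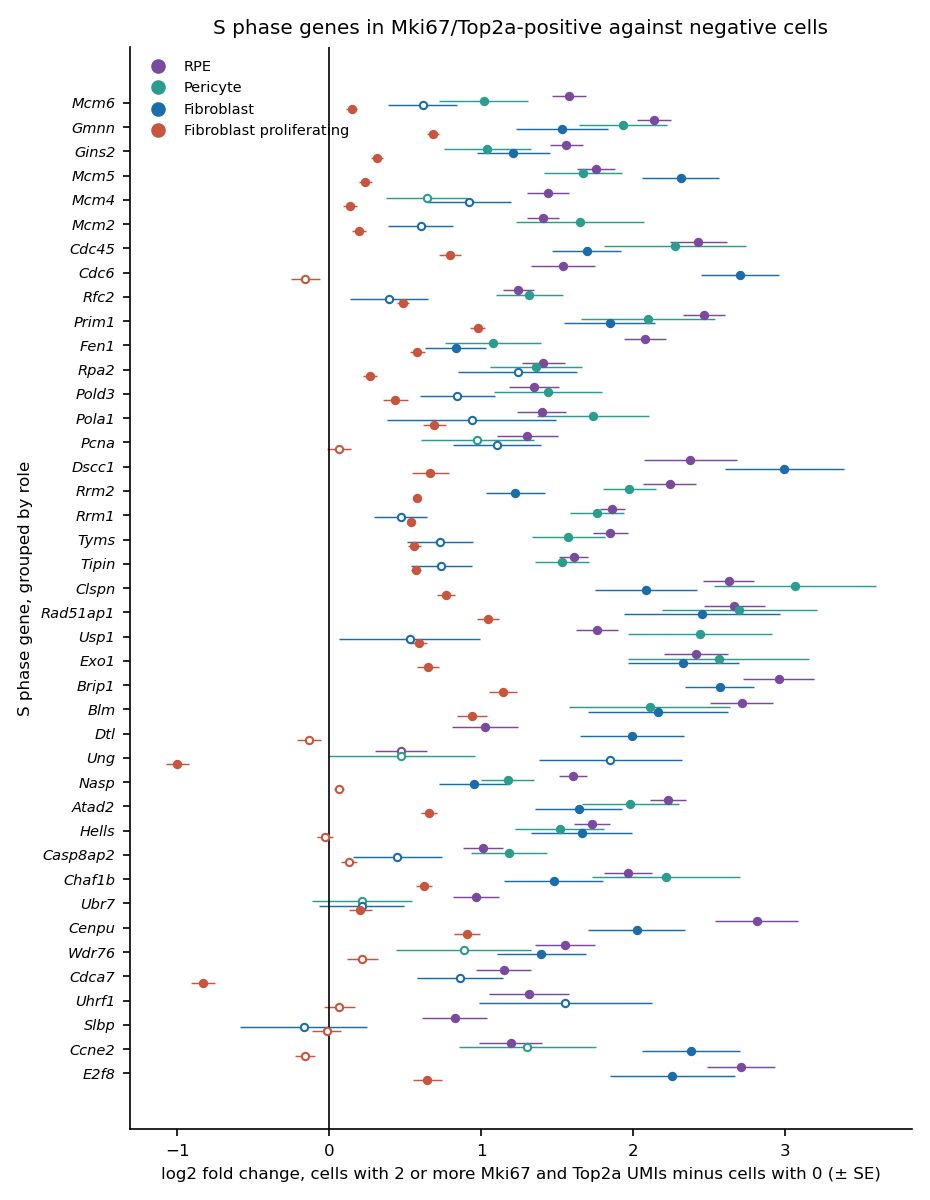
Log2 fold change (± SE) of each S phase gene between cells with 2 or more and cells with 0 UMIs of Mki67 and Top2a, in 4 cell types. Filled points were called at an adjusted p under 0.05 (voom-limma) and open points were not; the Fibroblast proliferating points have the lowest median (0.49), and Ung and Cdca7 are on the negative side at -1.002 and -0.83.

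Other genes of replication were a list of 32 names outside the 41. By voom-limma, 31 of 31 tested were higher in positive RPE cells and 21 of 23 in Pericyte. In Fibroblast it was 10 of 31 and in Fibroblast proliferating 26 of 32, where 2 were lower. All genes were higher at 16%, 7.8%, 9.18% and 11.3% in these fits, and lower at 15.4% in the last. By edgeR, 15 of 31 were higher in Fibroblast, against 0.89% of genes. In Pericyte 9 were not tested, and a gene could pass the low-count filter through positive cells alone, so that count is a description. Against the same voom-limma shares of higher genes, the G2/M list of 54 names was higher for 52 of 54 in RPE and 50 of 51 in Pericyte. It was higher for 25 of 51 in Fibroblast and 53 of 54 in Fibroblast proliferating. This list holds Mki67 and Top2a, which made the classes, so its counts are a description of the classes.

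The changes were set side by side in an interaction fit, chosen after the values above had been seen. The types are clusters made from the same counts, and negative cells held 2585 CPM of the 41 genes in Fibroblast proliferating against 869 CPM in RPE, so these counts describe the clusters and are no test between cell types. The change between positive and negative cells was larger in RPE than in Fibroblast proliferating for 41 of 41 members, against 8.62% of 14139 genes, with a median difference of 1.38 on the log2 scale. It was larger in Pericyte for 28 of 41 members, against 3.29% of 12146 genes. Of these 41, 9 had not passed the low-count filter in Pericyte alone and entered this fit through Fibroblast proliferating. Among the other 32, 23 were called larger, and among those 9, 5 were. In Fibroblast it was larger for 19 of 41, against 4.73% of 15913 genes. Over all genes 752 were called larger and 94 smaller there. By edgeR it was larger for 12 members, a count without a share over all genes by that test. The RPE difference was greatest for E2f8 (2.15, SE 0.24) and Cdca7 (2.02, SE 0.20), and was 1.33 (SE 0.20) for Ung.

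Within Fibroblast proliferating the members parted further when cells were arranged in 5 classes of Mki67 and Top2a UMIs (0, 1, 2 to 4, 5 to 9, and 10 or more), a choice also made after values had been seen and reported without a test. From the first to the last class, 22 members were higher and 6 were lower in 6 of 6 samples, and 13 were mixed. No share over all genes was worked out for these classes, so the counts describe the members only. The 6 lower members were Ung, Ccne2, Cdca7, Cdc6, Dtl and Wdr76. Ung was at 26.4 ± 4.39, 25.4 ± 3.64, 20.1 ± 3.07, 7.92 ± 1.64 and 3.35 ± 1.26 CPM along the classes, so the last class held 0.127 of the first. Ccne2, the cyclin that drives entry into S phase, was at 52.2, 54.1, 58.8, 39.9 and 21.1 CPM. Cdc6, which loads the helicase, was at 24.2, 23.5, 26.1, 19.4 and 13.0 CPM.

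Rrm1, the large subunit of ribonucleotide reductase, went up along the classes, at 210, 235, 282, 334 and 357 CPM. Its partner Rrm2 was at 415, 488, 624, 647 and 607 CPM. Tyms, which makes thymidylate, was at 91.0, 103, 130, 144 and 146 CPM, and Blm at 14.1, 19.1, 25.3, 28.9 and 31.8 CPM. Mcm5 was highest in the middle class, at 73.8, 78.9, 94.5, 86.5 and 68.3 CPM. Over all members, 2 were highest in the class with 0 UMIs, 2 in that with 1, 19 in that with 2 to 4, 12 in that with 5 to 9 and 6 in the last. These counts have no share over all genes beside them either. The summed G2/M level, which includes the Mki67 and Top2a UMIs that made the classes, was 4333 CPM in the first class and 11814 CPM in the last, and the summed S phase level was 2585, 2936, 3546, 3585 and 3349 CPM.

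In RPE, wt/wt replicate 2 and ko/ko replicate 3 had enough cells in the classes of 0, 1, 2 to 4 and 5 to 9 UMIs. Ung was at 10.9, 18.3, 20.7 and 9.96 CPM along these classes in wt/wt replicate 2, and at 13.6, 37.4, 27.6 and 8.98 CPM in ko/ko replicate 3. Ung was thus highest in the middle classes of both samples. The last class was lowest in both, but lay close to the first in wt/wt replicate 2, so the order of those classes is uncertain there. Cdca7 was at 6.98, 14.3, 15.9 and 20.9 CPM in wt/wt replicate 2 and at 8.87, 23.6, 21.9 and 19.5 CPM in ko/ko replicate 3, lowest in the first class of both.

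**Figure D4:**
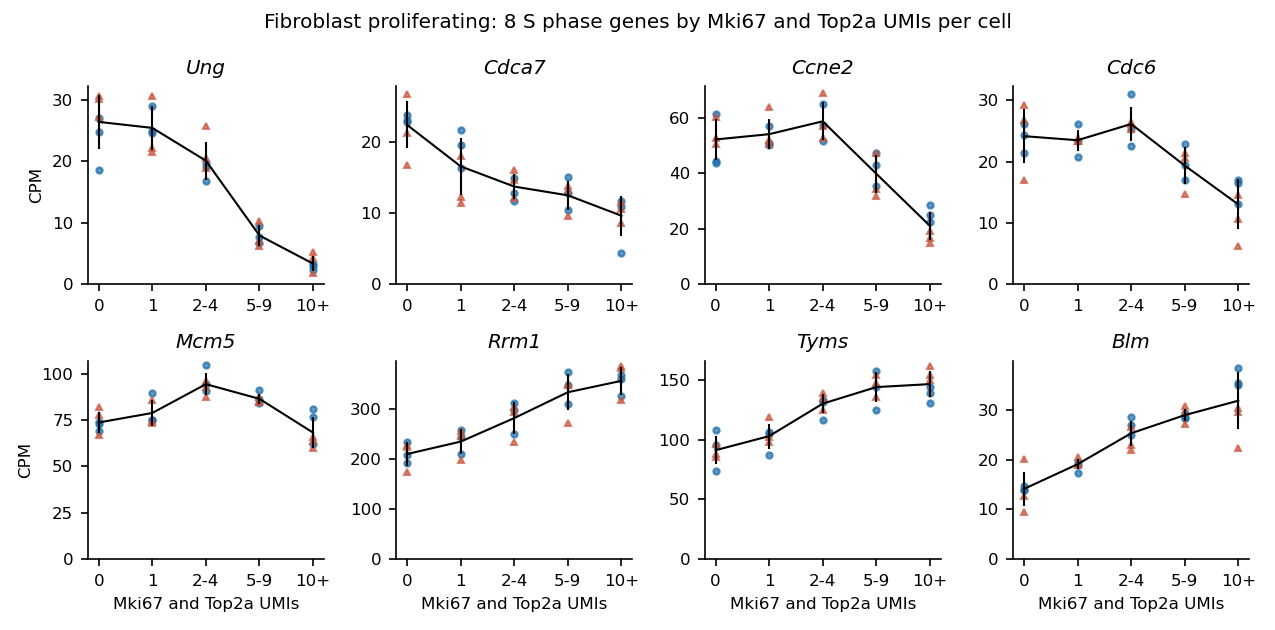
Levels in CPM of 8 S phase genes in Fibroblast proliferating cells, against the number of Mki67 and Top2a UMIs per thinned cell. Each point is 1 sample (circles, Dram2 wt/wt; triangles, Dram2 ko/ko) and the line gives the mean ± SD of 6 samples; Ung goes from 26.4 to 3.35 CPM, Rrm1 from 210 to 357 CPM, and Mcm5 is highest at 94.5 CPM in the middle class.

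Between genotypes, no member was called in whole samples. This count of 0 of 41 stands against 0% of 22580 genes by voom-limma, and 1 member, Mcm6, had an unadjusted p under 0.05, against 7.01% of genes. A whole-sample sum mixes changes in the make-up of a sample with changes in level per cell, which cannot be told apart in it. Log2 fold changes of ko/ko against wt/wt ran from -0.19 to 0.28, with a median of 0.10, and 35 of 41 were above 0, against 51.0% of all genes. Members share the cells that are dividing, so their signs are not independent. The other replication genes gave 0 of 32 and the G2/M genes 0 of 54 called.

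Mcm6 (chr1:128331590-128359664, minus strand) was at 54.0, 60.6 and 56.8 CPM in the wt/wt and 66.3, 66.7 and 72.0 CPM in the ko/ko replicates. It was the only member whose groups did not overlap in whole samples, against 4.2% of genes with every ko/ko sample above every wt/wt sample, and 7.33% with every one below. Its log2 fold change was 0.28 (SE 0.08), with an adjusted p of 0.295 in voom-limma. By cell type the groups were also apart in Fibroblast, Fibroblast 2, Fibroblast proliferating and Myeloid (2 against 2 samples in the last). In Fibroblast, Mcm6 was at 32.7, 34.2 and 35.0 CPM in wt/wt and 44.8, 42.8 and 40.7 CPM in ko/ko (0.33, SE 0.08, adjusted p = 0.155 in voom-limma). In Fibroblast 2 it was at 18.6, 17.5 and 16.0 CPM against 26.9, 26.1 and 23.8 CPM (0.56, SE 0.12, adjusted p = 0.145 in voom-limma). In Fibroblast proliferating it was at 115, 117 and 122 CPM against 132, 129 and 129 CPM (0.14, SE 0.07, adjusted p = 0.887 in voom-limma). Mcm6 was called in Fibroblast by DESeq2 (log2 fold change 0.35, adjusted p = 0.0223), which called 1.61% of genes there. In Myeloid it was at 50.7 and 14.8 CPM in wt/wt replicates 2 and 3 and at 62.4 and 60.1 CPM in ko/ko replicates 2 and 3, on 77 UMIs in all. In RPE, Pericyte, Endothelial and Fibroblast-like the Mcm6 groups overlapped.

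Gins2 was at 43.1, 46.4 and 38.2 CPM in wt/wt and 43.8, 55.0 and 48.8 CPM in ko/ko whole samples. Rfc2, a subunit of the clamp loader, was at 48.0, 49.4 and 43.4 against 47.0, 55.1 and 53.8 CPM. Fen1, which trims the primers, was at 26.1, 32.8 and 26.6 against 29.6, 31.3 and 34.2 CPM. These groups overlapped, and none of the differences passed the test.

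Rrm2 was at 198, 241 and 194 CPM in wt/wt and 206, 233 and 232 CPM in ko/ko. For Rrm1 the values were 117, 156 and 133 against 129, 111 and 153 CPM. Tipin, a partner of the fork checkpoint, was at 96.0, 105 and 92.1 against 97.2, 121 and 111 CPM. Clspn was at 29.5, 26.8 and 25.6 against 23.9, 31.2 and 31.6 CPM. Wt/wt replicate 2 and ko/ko replicate 3 were the high samples for Rrm1, one in each genotype.

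Nasp, a histone chaperone, was at 96.8, 105 and 88.7 CPM in wt/wt and 92.4, 91.2 and 111 CPM in ko/ko. Atad2, a chromatin ATPase, was at 48.1, 47.5 and 43.2 against 47.1, 52.7 and 50.6 CPM. Ccne2 was at 14.4, 17.6 and 16.9 against 14.8, 19.0 and 16.6 CPM. E2f8 was at 6.87, 9.37 and 7.30 against 6.53, 6.73 and 9.10 CPM. All of these overlapped between genotypes.

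**Figure D5:**
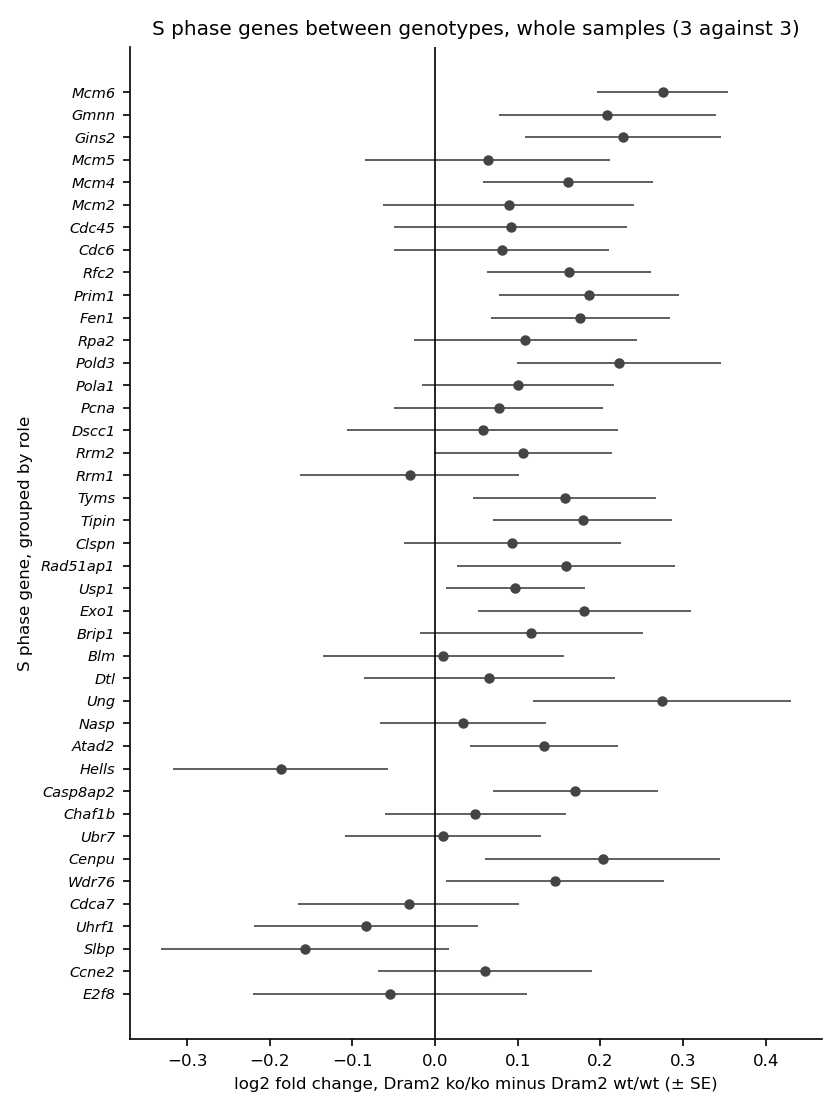
Log2 fold change (± SE) of each S phase gene between Dram2 ko/ko and Dram2 wt/wt whole samples, 3 against 3, by role. All values lie between -0.19 and 0.28, 35 of 41 are above 0, and none was called after adjustment.

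By cell type, 0 members were called in any of the 8 types by voom-limma. All genes were called at 0.624% in Fibroblast proliferating, 0.00503% in Fibroblast, 0.0118% in Pericyte, 0.222% in Fibroblast 2 and 0.0296% in Myeloid, and at 0% in Fibroblast-like, RPE and Endothelial. Members tested were 41 in Fibroblast, Fibroblast proliferating and RPE, 39 in Pericyte, 34 in Fibroblast 2, 23 in Fibroblast-like, 20 in Myeloid (2 against 2 samples) and 11 in Endothelial. Their median log2 fold change was 0.04 for Fibroblast, 0.03 for Fibroblast 2, 0.02 for Fibroblast proliferating, 0.15 for Fibroblast-like, 0.33 for Myeloid, 0.04 for Endothelial, 0.07 for RPE and -0.00430 in Pericyte. At an unadjusted p under 0.05 there were 2 members in Fibroblast (Mcm6 and Mcm4) and in Pericyte (Nasp and Rrm1), 1 each in Fibroblast 2 (Mcm6), Fibroblast proliferating (Hells), Fibroblast-like (Chaf1b) and Endothelial (Casp8ap2), and 0 in RPE and Myeloid. All genes passed that unadjusted level at 4.65% in RPE, 7.18% in Fibroblast, 5.24% in Endothelial, 6.79% in Fibroblast proliferating, 5.9% in Pericyte, 6.2% in Fibroblast 2, 5.94% in Myeloid and 5.08% in Fibroblast-like. The members' counts are to be read against these shares. In Fibroblast proliferating, Hells, a chromatin remodeler, was at 93.7, 102 and 109 CPM in wt/wt and 86.4, 77.0 and 89.9 CPM in ko/ko, without overlap (log2 fold change -0.27, SE 0.09, adjusted p = 0.383 in voom-limma). Every ko/ko sample lay above every wt/wt sample for 6 members in Fibroblast and 4 in Fibroblast proliferating, against 4.57% and 4.76% of genes, and below for 2 in each, against 7.01% and 6.52%. In Fibroblast those with the largest differences were Mcm6 (0.33), Ung (0.31), Uhrf1 (-0.31), Prim1 (0.24) and Hells (-0.21), and in Fibroblast proliferating Hells (-0.27), Uhrf1 (-0.19), Mcm6 (0.14), Cenpu (0.13) and Fen1 (0.10). In Pericyte, E2f8 (-0.79), Rrm1 (-0.46) and Nasp (-0.35) lay below in every ko/ko sample, against 5.68% of genes, and 0 lay above, against 5.04%. Pericyte sums held few cells, 74, 38 and 32 in the wt/wt and 17, 124 and 23 in the ko/ko replicates, with 81 UMIs of E2f8 in all. Rrm1 was at 186, 204 and 226 CPM in wt/wt and 111, 172 and 157 CPM in ko/ko Pericyte cells (adjusted p = 0.775 in voom-limma). In Fibroblast-like, Chaf1b (0.68), Mcm4 (0.50) and Mcm2 (0.27) lay above, against 2.34% of genes, and 0 members below, against 6.05%. In Fibroblast 2, Mcm6 lay above and Cdca7 (-0.28) below, against 4.81% and 6.6%. In Endothelial, Casp8ap2 (0.66) lay above and 0 tested members below, against 3.94% and 6.6%. In RPE, 0 members lay above or below, against 2.48% and 5.09%. Myeloid sums held 32 and 15 cells in wt/wt replicates 2 and 3, and 11 and 14 in ko/ko replicates 2 and 3. In Myeloid, 6 lay above and 3 below, against 14.7% and 19.0% with 2 samples in each genotype. The largest were Mcm6 (0.99), Gins2 (0.91), Rad51ap1 (0.88), Gmnn (0.69) and Rfc2 (-0.68). None of these values passed the test. The median SE of the members was 0.50 in RPE, so small differences were not detectable there, against 0.10 in Fibroblast proliferating.

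The summed level was 1301, 1487 and 1266 CPM in the wt/wt and 1326, 1445 and 1537 CPM in the ko/ko whole samples, which overlapped. In Fibroblast proliferating it was 3261, 3290 and 3276 CPM in wt/wt and 3259, 3457 and 3358 CPM in ko/ko, again with overlap. The share of cells with 10 or more members was 25.8%, 30.1% and 24.5% in wt/wt and 26.4%, 29.1% and 31.6% in ko/ko. In Fibroblast proliferating it was 84.9%, 84.3% and 85.4% against 86.2%, 86.6% and 86.5%, where every ko/ko sample was above every wt/wt sample, by 1.55 percentage points on average. This difference depended on the setting, and was 0.140 points with 5 or more members, 2.50 with 15 or more, 0.871 with thinning to 4000 UMIs and 0.360 without thinning. In the deposited fibroblast sub-cluster 2 the share was 85.7%, 86.0% and 86.7% in wt/wt against 87.6%, 87.8% and 86.4% in ko/ko, which overlapped. A comparison of 3 against 3 samples cannot reach an exact permutation p below 0.1. For the difference of the genotype effect between Fibroblast proliferating and Fibroblast, 0 of 41 members were called by voom-limma and 0 by edgeR, against 0.0101% of 19755 genes called by voom-limma. At an unadjusted p under 0.05 there were 3 of the 41 members and 735 of the 19755 genes.

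Outside the 41, the genes whose levels followed the summed S phase level most closely over 46 sums of a cell type in a sample were Smc2 (Pearson r 0.983) and Smc4 (0.974), subunits of condensin. Ect2 (0.972), a regulator of cell division, Dbf4 (0.971), which activates the kinase that fires origins, Diaph3 (0.970) and Cip2a (0.969) came next. The kinetochore genes Ndc80 (0.967) and Knl1 (0.966), the spindle motor Kif11 (0.966) and Top2a (0.964) completed the 10 highest of 12855 genes. Of the members, Exo1 had the highest r (0.953) and Slbp the lowest (0.454). These sums share libraries, depth and cell types, and the coefficients are a description.

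For some members the 3′ sequence is shared with other genes. Words were matched on either strand and the strands were not told apart. Whether this sharing affected the counts was not tested. In the last 400 bases, 85.0% of the 31-base words of Fen1 were also found in Gm10143, 34.2% of those of Gins2 in Gse1 and 29.9% of those of Pcna in Pcna-ps2 or another gene. Ccne2 (20.8%), Rrm2 (20.6%), Usp1 (18.7%), Uhrf1 (18.2%), Pola1 (15.5%) and Tyms (11.7%) followed, and the other members were under 10%. Mcm6, Ung and Cdca7 shared 0.299%, 1.76% and 1.81%.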

How the data were processed

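The authors deposited raw UMI counts of every gene in every cell (3′ 10x libraries), made with Cell Ranger 3.1.0 on GRCm38 per the labels, not normalized, and 1 table of sample, genotype, batch, cell type and fibroblast sub-cluster per cell. Per the study's methods, exon reads were counted and cell types were clusters made in Seurat after integration over batch. The filters on cells were not given in the sources used here. Of 52636 identifiers, 52403 had a symbol. The members and gene lists were chosen with earlier results of these data known. Counts were summed per sample, and per cell type and sample with 10 or more cells. CPM is the sum scaled by total UMIs. Sums were filtered (filterByExpr), TMM-scaled and fitted with voom-limma (limma 3.58.1, edgeR 4.0.16, R 4.3.3), with genotype alone, or with sample as a block for positive against negative cells. P-values were Benjamini-Hochberg adjusted over all genes of a fit, and called under 0.05. Alternatives were edgeR's quasi-likelihood test, DESeq2 1.42.0, other scalings and filters, a replicate block, batch, other cell classes, and leaving out samples. All 25428 cells were used, no doublet caller was run, and an alternative left out the 5% of cells per sample with most UMIs. Another dropped the 469 cells that had fewer than 500 genes or a mitochondrial share above 20%. For shares and classes each cell was thinned to 8000 UMIs with a fixed seed.

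Genes named were the 2 members of each role with the highest CPM, members called, the 5 largest differences without overlap between genotypes, the 5 largest and 5 smallest called changes between cell classes, and the 10 nonmembers most correlated with the summed level. Other members were named after their values were seen. Positions are on GRCm38, counted from 1. The fits were tested on simulated data. Depth was 96808998 to 122746184 UMIs per sample. Nothing states that samples were separate animals, so p-values measure the spread between samples only.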

Additional observations from a re-analysis of the deposited data

Results flagged for a closer look

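The change between cells with 2 or more and cells with 0 UMIs of Mki67 and Top2a differed between cell types in an interaction fit (voom-limma, adjusted p under 0.05). The types are clusters of the same counts, so this describes the clusters and is no test between cell types. It was larger than in Fibroblast proliferating for 41 members in RPE, against 8.62% of all genes, for 28 members in Pericyte, against 3.29%, and for 19 members in Fibroblast, against 4.73%. In RPE the difference was 1.33 on the log2 scale for Ung, 2.02 for Cdca7 and 2.15 for E2f8. Negative cells held 2585 CPM of the 41 genes in Fibroblast proliferating, 869 CPM in RPE, 997 CPM in Pericyte and 554 CPM in Fibroblast, and the part of this starting level in the difference was not tested. Of the 41 members in the Pericyte fit, 9 had not passed the low-count filter in Pericyte alone. The RPE values rest on 3 samples, and leaving samples out of the interaction was not run. With 3 samples per genotype, no search for outlying samples was made.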

How the results depend on the processing

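Counts of members called between genotypes were 0 under every setting that could be run in whole samples and in each cell type, except 1 in Fibroblast with DESeq2 (Mcm6). The replicate block also gave 0. Same-numbered samples did not deviate together (r = -0.18, -0.62 and 0.09 over 8833 genes), while r ran from -0.53 to 0.71 for the other pairs. Deviations were taken from a mean of 3 samples, so these values constrain one another. A pairing by number was not seen, and this check cannot exclude one. Batch 2 held ko/ko replicate 3 alone, so batch as covariate and leaving out that sample are not separate checks. In whole samples the sign of the log2 fold change turned with the batch as covariate for Nasp (-0.0503). It also turned when 1 sample was left out, with ranges of -0.140 to 0.0594 for Rrm1 (above 0 without replicate 2 of either genotype), -0.0486 to 0.0776 for Nasp (below 0 without replicate 3 of either genotype), -0.0577 to 0.141 for Ccne2 (below 0 without wt/wt replicate 1 or ko/ko replicate 2) and -0.202 to 0.0601 for E2f8 (above 0 without wt/wt replicate 2 or ko/ko replicate 1). None of these was called. For members higher in Mki67/Top2a-positive cells, leaving out 1 sample gave 39 to 40 in RPE, 21 to 26 in Pericyte, 27 to 31 in Fibroblast proliferating and 2 to 6 in Fibroblast. Members lower in positive Fibroblast proliferating cells were 4 with 3 or more UMIs as the limit and 5 with thinning to 4000 UMIs, and 2 to 3 without 1 sample. The change was larger in Fibroblast than in Fibroblast proliferating for 12 members in edgeR, against 19 in voom-limma, with no share over all genes for edgeR. The ko/ko minus wt/wt difference in summed level of Fibroblast proliferating was 81.9 CPM over all members. It was 10.5 CPM without members with 5% or more shared 3′ words, a setting added after the data were seen. That smaller sum leaves out high members such as Rrm2 (580 CPM in this type). These differences are therefore sums over different genes, and the part of the smaller sum in the fall was not worked out. Without 1 sample the difference over all members ranged from 32.5 to 131 CPM in Fibroblast proliferating and from -481 to 256 CPM in RPE. The difference in the share of cells with 10 or more members in Fibroblast proliferating was 0.140 percentage points with 5 or more members, 2.50 with 15 or more, 0.871 with thinning to 4000 and 0.360 without thinning. Mean summed levels moved to 469 CPM in Fibroblast 2 with a mean over cells and to 1434 CPM in Fibroblast-like with the cell filter. The cause of these changes was not tested. Positive classes at 3 UMIs or 4000 UMIs were not possible in RPE and Fibroblast, and leaving out cells with most UMIs was not possible in Myeloid.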
